A study of Arabidopsis thaliana with 21 samples.

Results

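Alpha-expansins are secreted plant proteins that loosen the cell wall, and 10 of their genes were followed here through the imbibition of Arabidopsis thaliana seeds in water or with ethylene. The genes were chosen by locus, as EXPA1 (AT1G69530), EXPA2 (AT5G05290), EXPA3 (AT2G37640), EXPA4 (AT2G39700), EXPA5 (AT3G29030), EXPA6 (AT2G28950), EXPA8 (AT2G40610), EXPA9 (AT5G02260), EXPA10 (AT1G26770) and EXPA15 (AT2G03090), and are 10 of the 37336 genes counted. RNA was read from whole wild-type seeds in 7 groups: dry seeds, seeds imbibed for 6, 16 or 24 h in water, and seeds imbibed for the same 3 times with ethylene, a gaseous plant hormone. Each group was deposited as 3 libraries, and no accession of the plant or dose of the gas is named in the labels. Replicates are described as biological in the series. Whether each had its own seed lot is not stated, and p-values therefore measure the spread between these libraries, which may be technical.

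A seed germinates when the embryonic root elongates and breaks through the endosperm and seed coat around it, and both events require cell walls to yield. Expansins act at the acid pH that plasma membrane proton pumps of the AHA family create in the wall, and they let wall polymers slide without cutting them. Gibberellins and ethylene promote germination in many species, and expansin genes are classic targets of gibberellin in germinating seeds. EXPA2 is known as an endosperm gene of germinating Arabidopsis seeds, and EXPA8 as a gibberellin-responsive gene of the embryo.

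Depth ran from 12154732 to 22109880 reads per library, with 94.3 to 97.4% of them on genes. The library labelled ethylene 16 h replicate 2 went against its label. Across 18969 genes, which are not independent replicates, Pearson's r of its log2 levels was 0.9937 to 0.9947 against water 16 h and 0.9028 and 0.9077 against the other ethylene 16 h libraries. Its alpha-expansins stood at the levels of water too. With all 21 libraries scaled together, EXPA1 was at 44.6 CPM (reads scaled to a common library size) there, against 654 and 676 in the other ethylene 16 h libraries and 29.2 to 64.4 in water. For 9 of the 10 genes it lay within the range of the water 16 h libraries, and EXPA6 lay just above that range at 0.298 CPM, on 6 reads. It was left out, so ethylene at 16 h has 2 libraries, and the counts of these 10 genes called in each comparison are also given with it; counts of other gene lists come from the 20 libraries alone. The genes that mark a mature seed, 10 storage protein, oleosin and late embryogenesis genes, summed to 168000 to 185000 CPM in dry seeds, as seed tissue should hold.

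**Figure D1:**
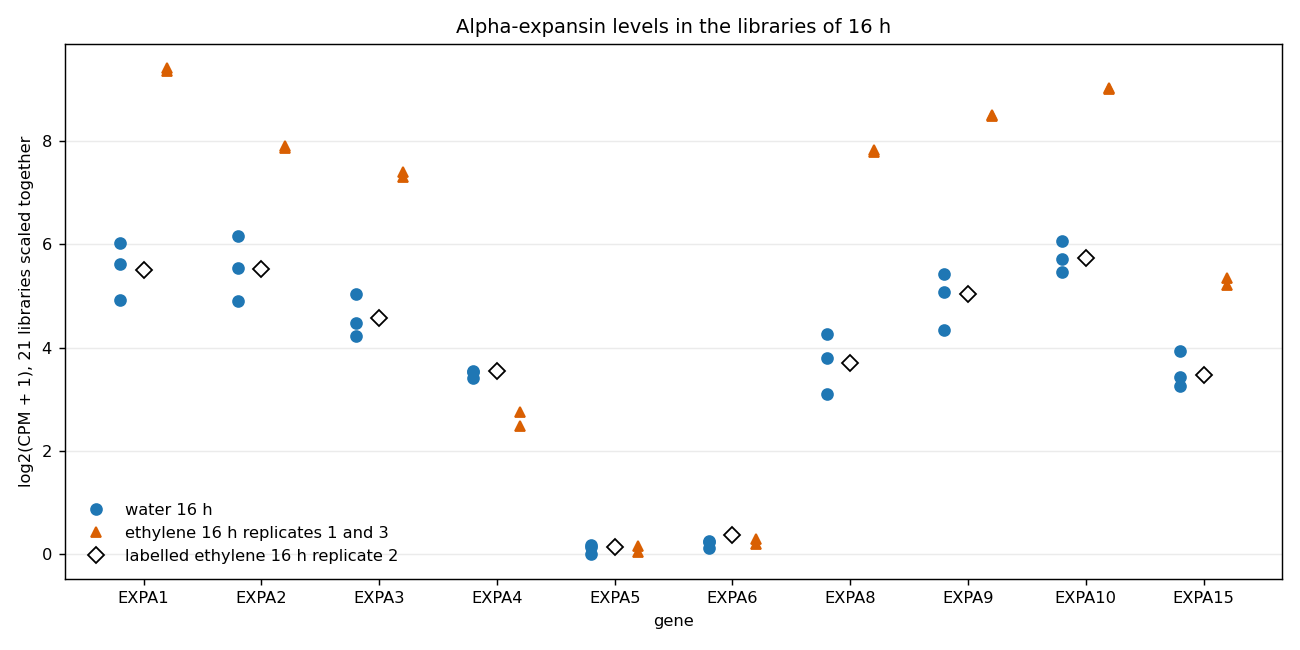
Level of the 10 alpha-expansin genes, as log2(CPM + 1), in each library of 16 h with all 21 libraries scaled together: circles are water, triangles the ethylene replicates 1 and 3, diamonds the library labelled ethylene 16 h replicate 2. The diamond for EXPA1 lies at 44.6 CPM among the water libraries and far from the triangles at 654 and 676 CPM.

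The genes lie on chromosomes 1, 2, 3 and 5 of the RefSeq assembly TAIR10.1, the counts having been made on TAIR10. EXPA1 spans chr1:26141726-26143538 on the plus strand, EXPA10 chr1:9259432-9261313 plus, EXPA2 chr5:1568694-1569915 plus and EXPA9 chr5:463073-465273 plus. On the minus strand lie EXPA8 at chr2:16948791-16950705, EXPA3 at chr2:15787523-15790139, EXPA15 at chr2:916806-918671, EXPA4 at chr2:16543832-16545746, EXPA6 at chr2:12431338-12433796 and EXPA5 at chr3:11011262-11013451. They have 3 exons each, except EXPA10 and EXPA15 with 4, and 1029 to 1783 exon bases. No word of 50 exon bases was shared with another annotated gene (0% for each of the 10), so reads of these genes could be placed. EXPA2 overlaps 1 annotated gene, AT5G05300, whose part in its reads was not tested.

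The 250 bases before each annotated gene start were searched on both strands for 6 short motifs. Those holding a match and lying before a gene that was higher with ethylene at 16 h are shown, 5′ to 3′ on the gene's strand and credited to RefSeq TAIR10.1, with the match in capitals. In the EXPA1 (chr1:26141476-26141725, plus), EXPA10 (chr1:9259182-9259431, plus) and EXPA2 (chr5:1568444-1568693, plus) windows the capitals mark the NAC core CATGTG, which in the first pair reads as CACATGTG, a palindrome that holds the core on both strands. In the EXPA15 window (chr2:918672-918921, minus) they mark the EIN3-type motif ATGTAC, found on the opposite strand.
EXPA1: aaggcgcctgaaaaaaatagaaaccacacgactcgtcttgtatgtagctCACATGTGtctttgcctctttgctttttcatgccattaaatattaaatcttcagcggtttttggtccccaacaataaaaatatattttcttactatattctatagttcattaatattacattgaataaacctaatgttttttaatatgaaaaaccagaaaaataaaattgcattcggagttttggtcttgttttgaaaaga
EXPA10: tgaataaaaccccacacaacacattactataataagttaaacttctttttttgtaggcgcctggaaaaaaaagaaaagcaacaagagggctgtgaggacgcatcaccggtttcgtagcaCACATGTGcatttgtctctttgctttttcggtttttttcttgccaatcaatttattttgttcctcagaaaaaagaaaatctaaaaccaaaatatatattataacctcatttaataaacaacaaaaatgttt
EXPA2: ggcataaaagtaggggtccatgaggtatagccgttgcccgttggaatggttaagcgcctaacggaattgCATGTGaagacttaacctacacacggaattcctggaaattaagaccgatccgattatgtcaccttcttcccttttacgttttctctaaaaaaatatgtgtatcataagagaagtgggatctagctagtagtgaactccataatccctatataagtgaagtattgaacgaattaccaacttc
EXPA15: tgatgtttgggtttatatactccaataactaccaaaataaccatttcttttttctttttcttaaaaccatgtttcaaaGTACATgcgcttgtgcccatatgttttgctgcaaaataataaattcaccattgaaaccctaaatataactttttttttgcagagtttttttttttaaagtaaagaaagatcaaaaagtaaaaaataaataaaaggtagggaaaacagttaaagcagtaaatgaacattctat
The NAC core stood in 3 of the 10 windows (30%), in 5 of the 15 windows of other alpha-expansins (33.3%) and in 11.1% of 27443 windows of protein-coding genes. The EIN3-type motif stood in 1 of 10 (10%), against 9.52% of all windows. The windows of EXPA1 and EXPA10 also shared a run of 14 bases, ctctttgctttttc, that begins 186 and 116 bases before the gene start, shortly after the palindrome in both. This was the longest run among the 45 pairs of windows, the others sharing 6 to 12 bases. None of the 10 windows held the GCC box GCCGCC (1.87% of all windows), the G-box CACGTG (6.49%) or the gibberellin response element TAACAA (30.8%), and the L1 box TAAATGCA or TAAATGTA was found only before EXPA5 (4.49% of all). A match is a description of letters and says nothing of binding.

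Dry seeds held almost no RNA of these 10 genes, and imbibed seeds differed in both the amount and the kind. Summed over the 10 genes, the level was 4.17 ± 0.812 CPM in dry seeds (mean ± SD, n = 3), 324 ± 9.35 at 6 h in water, 238 ± 76.1 at 16 h and 356 ± 62.7 at 24 h. With ethylene the sum was 388 ± 32.5 CPM at 6 h, and then 2203 ± 30.7 at 16 h (n = 2) and 2105 ± 56.8 at 24 h. In bulk samples a lower level can mean fewer cells of a type or less RNA per cell, and these cannot be told apart. Per kilobase of exon, which allows genes to be compared, EXPA8 made up 61.1 ± 1.92% of the sum at 6 h in water and 59.6 ± 2.24% with ethylene, with EXPA10 next at 19.3 ± 1.53% and 23.5 ± 1.73%. By 24 h EXPA2 led, at 32.5 ± 1.33% in water and 35.0 ± 1.16% with ethylene, followed by EXPA9 (17.9 ± 0.439% and 21.9 ± 0.197%) and EXPA1 (16.9 ± 1.22% and 16.7 ± 0.461%). At 16 h the lead differed between the treatments: EXPA2 took 26.7 ± 2.89% in water, while EXPA1 took 27.9 ± 0.269% with ethylene. The make-up of the pool thus moved with time in both treatments, while the amount was several times higher with ethylene from 16 h on.

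**Figure D2:**
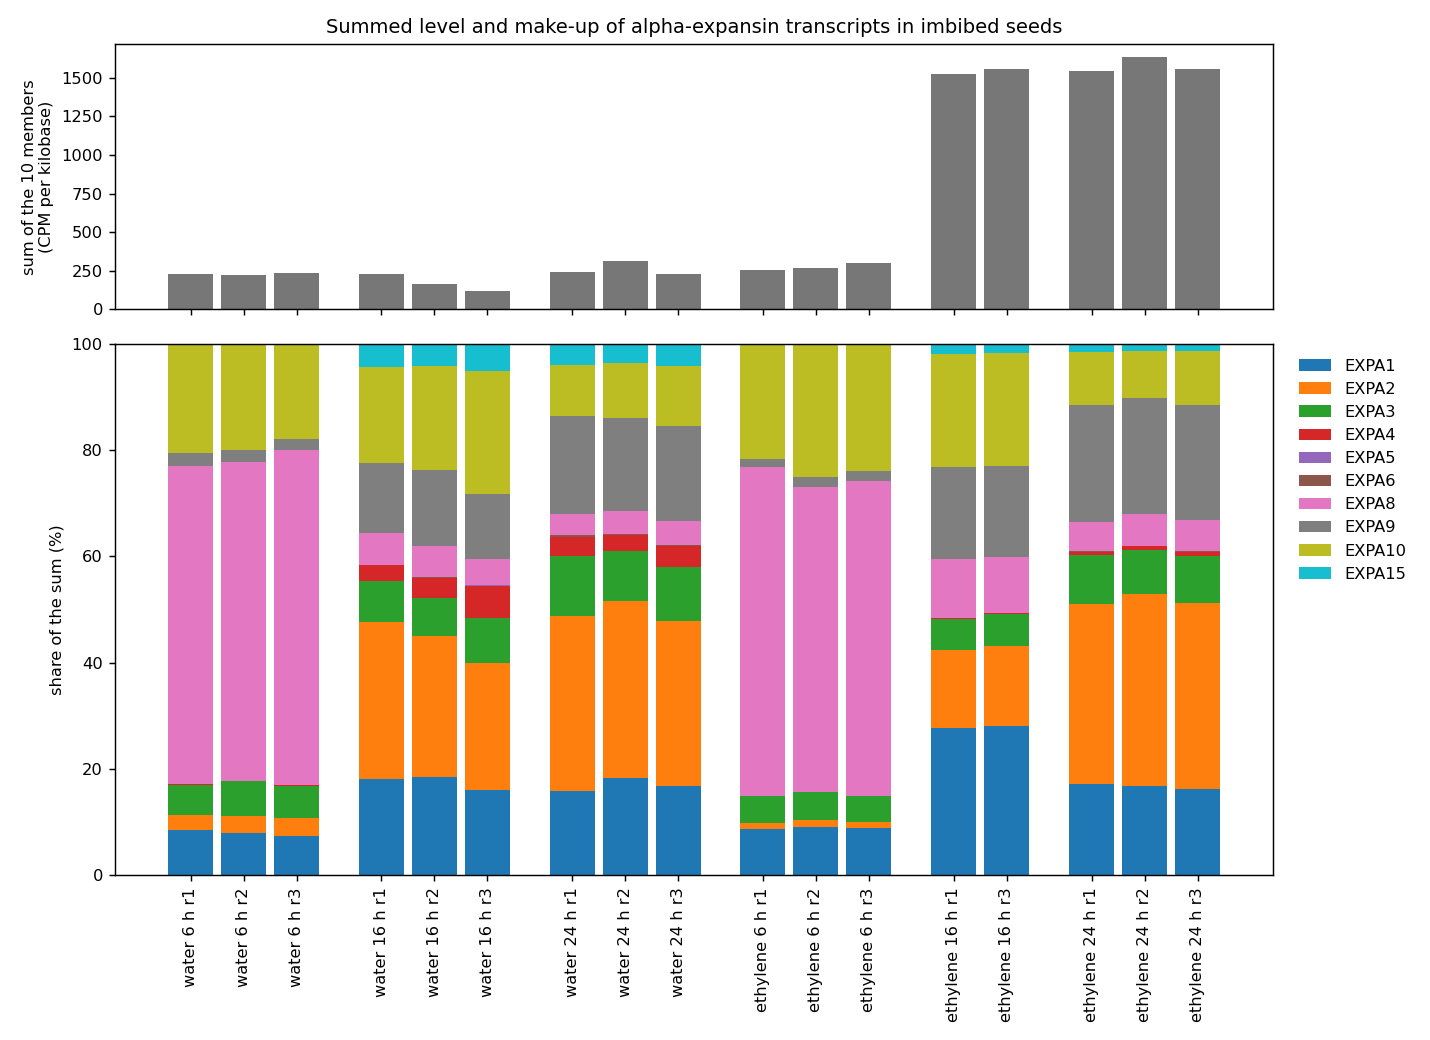
Upper bars give the summed level of the 10 alpha-expansin genes, in CPM per kilobase, in each imbibed library, and lower bars the share of each gene in that sum, in percent. EXPA8 takes about 60% at 6 h (61.1% in water), and the sum is 1539 ± 20.6 with ethylene at 16 h against 172 ± 57.0 in water.

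**Figure D3:**
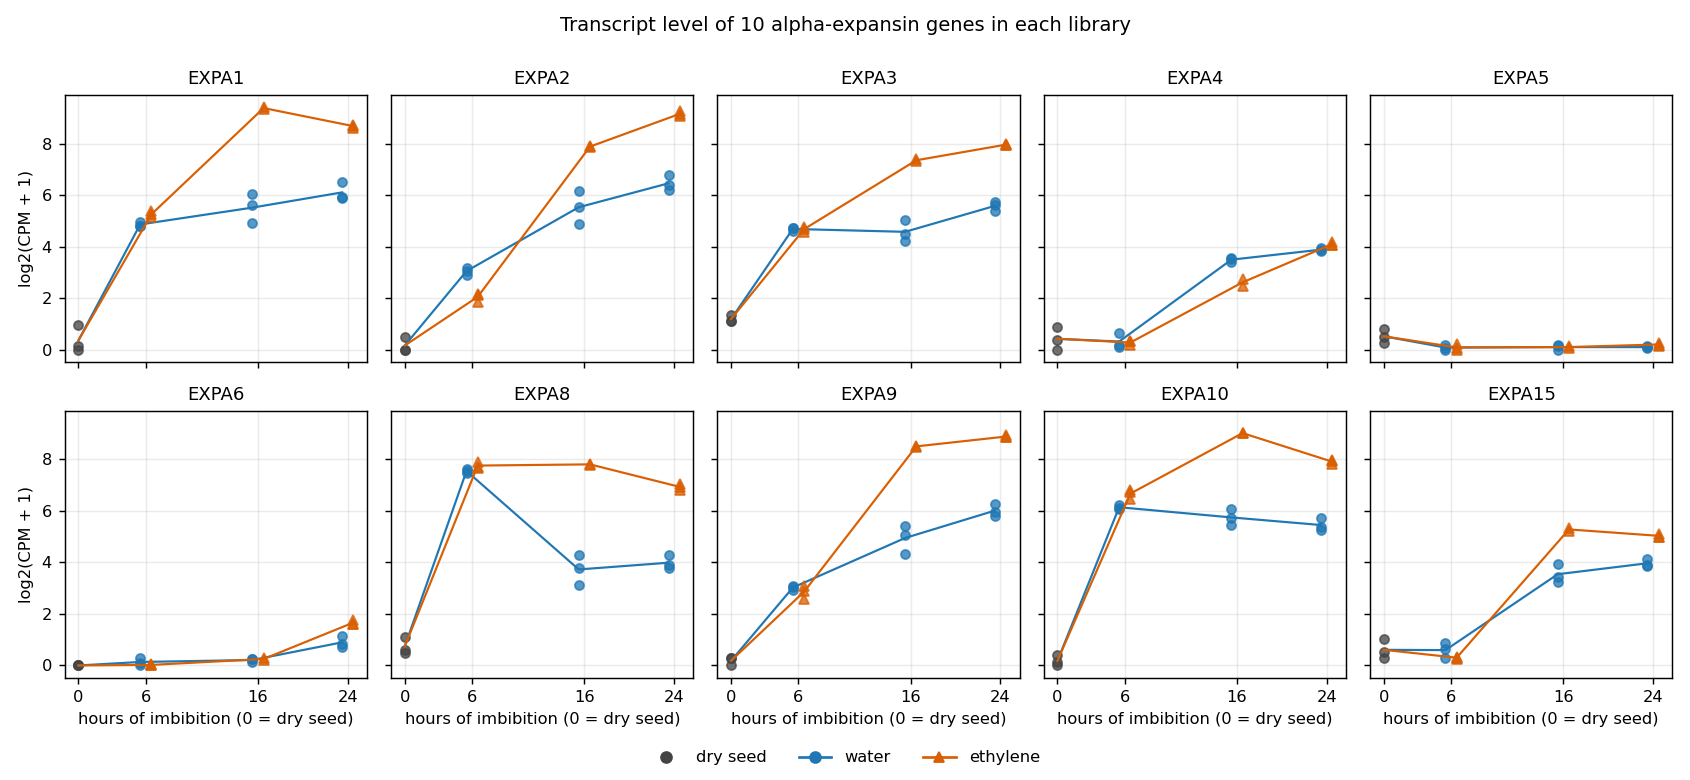
Level of each alpha-expansin gene, as log2(CPM + 1), against hours of imbibition: each point is 1 library (grey dry, blue circles water, orange triangles ethylene) and lines join group means. The treatments lie together at 6 h for EXPA3 and EXPA9 and apart from 16 h on for 7 genes, while EXPA4 is lower with ethylene at 16 h and EXPA5 stays near 0.

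The course in water was described first, from the dry seed to 24 h, because it is the background against which ethylene is read. At 6 h, the first imbibed time sampled, EXPA8 and EXPA10 were the most abundant of the 10 genes. EXPA8 had 4, 11 and 5 reads in the 3 dry libraries and stood at 183, 176 and 198 CPM after 6 h in water. It was back at 18.3, 12.9 and 7.61 CPM at 16 h and stood at 12.8, 18.2 and 14.0 CPM at 24 h. Its level at 6 h was thus a peak in water, above every library of 16 and 24 h. Between 16 and 24 h it was not called (log2 0.25 ± 0.166, edgeR adjusted p = 0.236), but was so without water 16 h replicate 1 (0.59, edgeR adjusted p = 0.00194). The log2 fold change of EXPA8 was 8.04 ± 0.248 (± SE) from dry to 6 h, a 262-fold rise, and -3.85 ± 0.131 from 6 to 16 h, a 14.5-fold fall (edgeR adjusted p = 1.36e-24 and 4.63e-23).

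EXPA10, a gene known for its part in leaf growth, had 3, 1 and 0 reads in dry seeds and reached 74.4, 68.8 and 65.2 CPM at 6 h. Its libraries at 16 h, at 65.5, 51.6 and 42.9 CPM, overlapped those of 6 h, and those of 24 h lay at 36.9, 51.5 and 40.7 CPM. From 6 to 16 h it changed by -0.38 ± 0.105 on the log2 scale (edgeR adjusted p = 0.00155) and from 16 to 24 h by -0.29 ± 0.109 (edgeR adjusted p = 0.0291). The last call ended without water 16 h replicate 1, or without water 24 h replicate 1 or 3 (edgeR adjusted p = 0.379, 0.158 and 0.105), and under RLE scaling and DESeq2.

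EXPA1, best known from guard cells, and EXPA3 also rose within 6 h and then held or rose slowly. EXPA1 went from 9, 0 and 1 reads in dry seeds to 30.5, 27.2 and 26.8 CPM at 6 h, a 78.4-fold rise. At 16 h its water libraries stood at 64.3, 47.8 and 29.1 CPM, and at 24 h at 59.0, 89.2 and 59.7 CPM. These last 2 sets overlap, and the rise between them of 0.57 ± 0.152 on the log2 scale (edgeR adjusted p = 0.00253) was lost without water 24 h replicate 2, at 0.34 with an edgeR adjusted p of 0.073. EXPA3 had 1.15 to 1.56 CPM in dry seeds and 23.5 to 25.5 CPM at 6 h. It did not pass the test from 6 to 16 h, with a log2 change of -0.09 ± 0.117 (without water 16 h replicate 1 it was called lower, at -0.36), and rose 2-fold, to 41.0 to 52.3 CPM, by 24 h (edgeR adjusted p = 4.89e-09).

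EXPA2 and EXPA9 rose at each step. EXPA2 went from 4 reads in dry replicate 1 and 0 in the other dry libraries to 6.51, 7.41 and 8.07 CPM at 6 h, to 70.3, 45.6 and 28.8 CPM at 16 h and to 82.4, 109 and 73.1 CPM at 24 h. EXPA9 went from 2, 0 and 2 reads to 7.55, 7.17 and 6.66 CPM, then 41.6, 32.8 and 19.3, then 60.6, 75.6 and 55.4. No library of a later time overlapped those of the time before in either gene. From 6 to 16 h EXPA2 rose 6.48-fold and EXPA9 4.38-fold, and from 16 to 24 h they rose 1.84-fold and 2.06-fold (edgeR adjusted p = 2.46e-05 and 1.35e-07 for the later step).

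EXPA15 and EXPA4 were near 0 at 6 h and present at 16 h. EXPA15 had 0.208 to 1.05 CPM in dry seeds and 0.222 to 0.807 CPM at 6 h in water, which overlap. It then stood at 14.3, 9.79 and 8.51 CPM at 16 h, higher by 4.24 ± 0.246 on the log2 scale, and at 13.6 to 16.5 CPM at 24 h. The last step of EXPA15 was 0.45 ± 0.127 (edgeR adjusted p = 0.00482) and lost its call without water 16 h replicate 3 or water 24 h replicate 2 (edgeR adjusted p = 0.0666 and 0.0546). EXPA4 moved from 0.0937 to 0.555 CPM at 6 h to 10.6, 9.64 and 10.7 CPM at 16 h, a 36.8-fold rise (log2 change 5.20, or 6.39 without water 6 h replicate 3), and to 13.2, 14.5 and 13.8 CPM at 24 h. EXPA4 had the tightest water 16 h libraries of the 8 genes present by then, the highest being 1.11 times the lowest. EXPA6 had 0 reads in dry seeds, 2 to 4 per library at 16 h, and rose 5.09-fold to 0.637 to 1.21 CPM at 24 h (edgeR adjusted p = 0.000208). EXPA5, known as a brassinosteroid-responsive growth gene, had 7, 2 and 4 reads in the dry libraries and 0 to 6 in each imbibed one. It passed the filter on low counts in no library and was not tested. The depth-scaled ratio of 6 h in water to dry seeds, 3 reads against 13, was 0.12 (95% exact interval 0.022 to 0.438, counting error only).

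Counted over the 9 genes tested, 6 were higher at 6 h in water than in dry seeds and 0 lower, where 40.6% of all 19298 genes tested were higher and 34.5% lower. From 6 to 16 h in water 5 were higher and 2 lower (38.9% and 37.3% of all genes), and from 16 to 24 h 7 were higher and 1 lower (24.4% and 20.1%). The median log2 fold changes of the 9 were 5.60, 0.74 and 0.57, against 0.10, 0.02 and 0.01 over all genes. With the left-out library in the fit the counts were 6 and 0, 4 and 1, and 1 and 0, the spread of all genes being wider then (biological coefficient of variation 0.177 against 0.0466). EXPA4, EXPA6 and EXPA15 passed the filter on low counts only through their late groups, so such counts do not stand for all members. Fold changes from dry seeds rest on few reads: without dry replicate 1 the log2 fold changes at 6 h were 8.89 for EXPA1, 10.21 for EXPA2 and 10.19 for EXPA10, against 6.29, 5.66 and 8.88 with it, and EXPA1 stood at 5.71 without dry replicate 2.

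**Figure D4:**
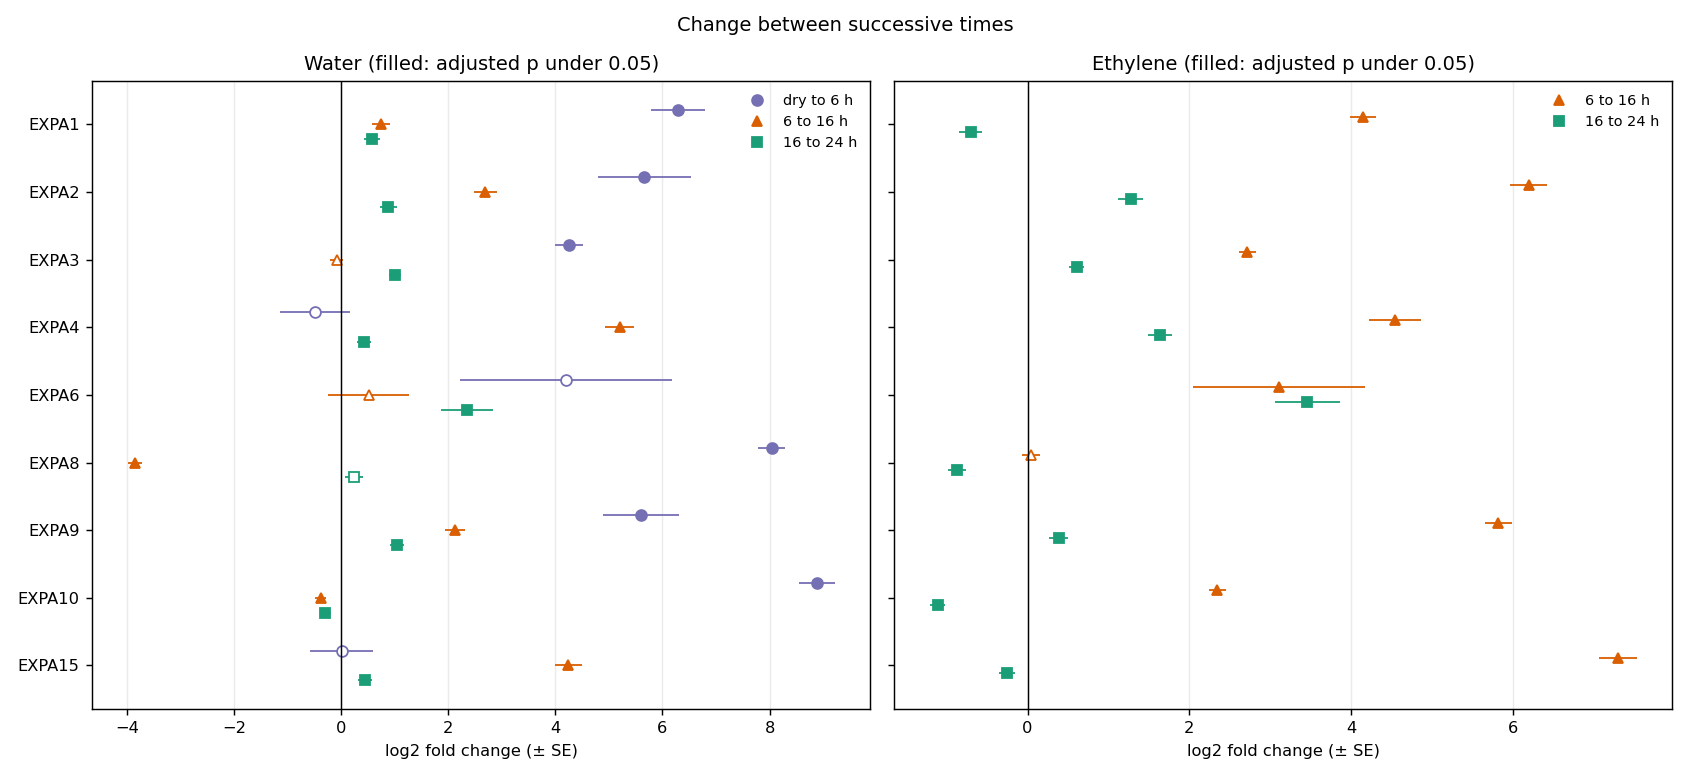
Log2 fold change (± SE) of the 9 tested alpha-expansin genes between successive times in water (left) and with ethylene (right); filled symbols have an edgeR adjusted p under 0.05. EXPA8 falls by 3.85 from 6 to 16 h in water and has an open symbol near 0 for the same step with ethylene; the EXPA6 point from dry to 6 h is set against 0 reads and depends on the prior count.

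Among the water 16 h libraries, replicate 1 was the highest and replicate 3 the lowest for EXPA1, EXPA2, EXPA3, EXPA8, EXPA9, EXPA10 and EXPA15, by 1.53-fold (EXPA10) to 2.45-fold (EXPA2). The summed mature seed genes went the other way, at 75280 CPM in replicate 1, 83490 in replicate 2 and 93140 in replicate 3, and the summed epidermis genes stood at 363, 342 and 326 CPM. Their part in the spread was not tested.

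Ethylene was compared with water at each time, the question the series names. At 16 h 7 of the 9 tested genes were higher with ethylene and EXPA4 was lower, where 37.6% of all genes were higher and 35.4% lower. EXPA8 stood at 226 and 218 CPM with ethylene, where the 3 water libraries lay between 7.61 and 18.3. The difference was 17.3-fold (log2 4.11 ± 0.135, edgeR adjusted p = 2.88e-23), the largest of the 9. EXPA1 stood at 654 and 675 CPM against 29.1 to 64.3, a 14.2-fold difference (log2 3.82 ± 0.155). EXPA9 stood at 358 and 363 CPM against 19.3 to 41.6, 11.6-fold apart (log2 3.54 ± 0.134). For each of these genes both ethylene libraries were several times above the highest water library.

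EXPA10 stood at 512 and 520 CPM with ethylene against 42.9 to 65.5 in water at 16 h (log2 3.28 ± 0.106), and EXPA3 at 157 and 168 CPM against 17.7 to 31.7 (log2 2.79 ± 0.106). EXPA2, the endosperm gene, stood at 231 and 239 CPM against 28.8 to 70.3, a 4.89-fold difference (log2 2.29 ± 0.161, edgeR adjusted p = 1.93e-14). The smallest rise was in EXPA15, at 39.5 and 36.1 CPM against 8.51 to 14.3 (log2 1.80 ± 0.119). EXPA4 went the other way, with 4.59 and 5.74 CPM against 9.64 to 10.7 in water, 1.99-fold lower (log2 -0.99 ± 0.158, edgeR adjusted p = 1.2e-06). The groups, of 2 and 3 libraries, overlapped for none of these genes. How many of all genes lay apart in this way was not counted. EXPA6 had 4 and 6 reads with ethylene and 2, 4 and 4 in water, too few to tell groups apart (log2 0.26 ± 0.677). With the left-out library in its labelled group 7 genes were still higher and none was lower, EXPA4 being at -0.57 with an edgeR adjusted p of 0.128.

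At 24 h 8 of the 9 were higher with ethylene and 0 lower, where 41.3% of all genes were higher and 41.3% lower; with the left-out library in the fit the counts were 8 and 0. EXPA2 stood at 537, 609 and 560 CPM with ethylene and was the most abundant of the 10 genes per kilobase. Water gave 82.4, 109 and 73.1 CPM, a difference of 6.42-fold (log2 2.68 ± 0.146, edgeR adjusted p = 1.32e-17). EXPA9 stood at 463, 488 and 460 CPM against 55.4 to 75.6 (log2 2.88 ± 0.121), and EXPA1 at 410, 423 and 392 CPM against 59.0 to 89.2 (log2 2.55 ± 0.142). EXPA8 lay 7.93-fold higher, at 112, 129 and 121 CPM against 12.8 to 18.2. EXPA3 at 245 to 252 CPM, EXPA10 at 227 to 247 and EXPA15 at 30.8 to 33.2 were 5.27-, 5.48- and 2.14-fold above water. EXPA6 reached 2.06 to 2.39 CPM, 2.59-fold above water (edgeR adjusted p = 6.01e-05). In each of these genes the ethylene libraries lay above those of water, and how many of all genes lay apart in this way was not counted.

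EXPA4 stood at 15.8, 15.7 and 17.1 CPM with ethylene against 13.2, 14.5 and 13.8 in water at 24 h. The groups did not overlap, yet the log2 difference of 0.22 ± 0.121 missed the threshold (edgeR adjusted p = 0.0856). It passed at 0.46 with RLE size factors in edgeR (adjusted p = 0.000816), a scaling that moved the median of all genes at 24 h from 0.00088 to 0.23. Relative to that shift the EXPA4 difference was about the same. It also passed with DESeq2 (0.46) and with reads of either strand (0.34), settings that likewise moved the median of all genes, to 0.235 and 0.114. The compared groups alone (0.23) and no filter on low counts (0.22) gave a pass too, with that median at 0.0153 and 0. The other 8 genes kept their direction at 24 h under each of these settings.

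At 6 h few of the 9 genes were called different between ethylene and water: 1 was higher and 1 lower, where 4.54% of all genes were higher and 4.34% lower. EXPA10 was higher, at 86.6, 105 and 112 CPM against 74.4, 68.8 and 65.2, with no overlap (log2 0.55 ± 0.100, edgeR adjusted p = 0.000185). EXPA2 was lower, at 2.65, 3.37 and 3.52 CPM against 6.51, 7.41 and 8.07, 2.32-fold (log2 -1.21 ± 0.341, edgeR adjusted p = 0.0181). Thus EXPA2 lay below water at 6 h and above it at 16 and 24 h. The EXPA2 call at 6 h was lost without ethylene 6 h replicate 1 or without water 6 h replicate 3 (edgeR adjusted p = 0.0722 and 0.0723), and both calls were lost with the left-out library in the fit.

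EXPA1 stood at 34.1, 37.4 and 40.5 CPM with ethylene at 6 h against 26.8 to 30.5 in water, and EXPA8 at 208, 203 and 235 CPM against 176 to 198. Both groups lay apart without overlap, but the differences of 0.42 ± 0.171 and 0.21 ± 0.101 on the log2 scale missed the threshold (edgeR adjusted p = 0.153 and 0.244). Both passed when the 6 h groups were fitted alone and when no filter on low counts was used. EXPA3 (23.1 to 26.0 CPM with ethylene) and EXPA9 (5.04 to 7.51 CPM) overlapped water, with log2 differences of -0.01 ± 0.117 and -0.16 ± 0.241. EXPA15 had 14 reads over the ethylene libraries and 31 over water (log2 -1.26 ± 0.590, edgeR adjusted p = 0.236), and EXPA4 had 13 and 15, and no difference was detectable at this depth. EXPA6 had 1 read in the 3 ethylene libraries and 6 in water, a ratio of 0.151 (95% exact interval 0.00329 to 1.25, counting error only).

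**Figure D5:**
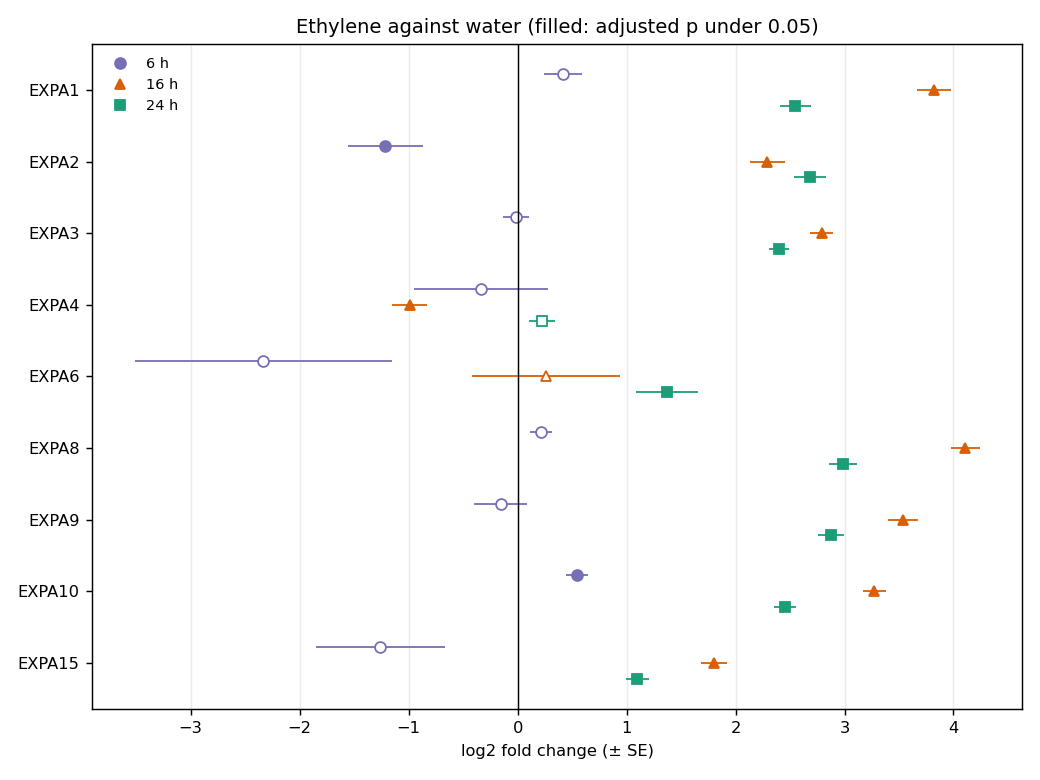
Log2 fold change of ethylene against water (± SE) for the 9 tested alpha-expansin genes at 6, 16 and 24 h; filled symbols have an edgeR adjusted p under 0.05. Filled symbols at 6 h are those of EXPA10 at 0.55 and EXPA2 at -1.21, while at 16 h they run from -0.99 for EXPA4 to 4.11 for EXPA8.

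The change of the ethylene effect between times was itself tested. From 6 to 16 h the effect grew in 7 of the 9 genes and shrank in 0, where it was higher for 28.6% of all genes and lower for 30.9%. EXPA4, EXPA6 and EXPA15 passed the filter on low counts only through later groups, so counts of a changed effect do not stand for all members. The growth was largest for EXPA8 (log2 3.90 ± 0.171), EXPA9 (3.69 ± 0.285) and EXPA2 (3.50 ± 0.375). With the left-out library in the fit only EXPA2 was still called (3.04, edgeR adjusted p = 0.0418), the other 6 lying at 2.22 to 3.35 with edgeR adjusted p from 0.0601 to 0.1. From 16 to 24 h the effect shrank in 6 genes and grew in 1 (30% and 10.7% of all genes). The median change was -0.66 over the 9 genes and -0.14 over all genes, the latter being 0.0067 under RLE scaling. EXPA1 and EXPA8 shrank most, by 1.28 and 1.12 on the log2 scale, and EXPA4 grew, by 1.22 ± 0.199, going from 1.99-fold lower at 16 h to 1.17-fold higher, the latter not called. Between 6 and 16 h EXPA4 passed the test only without water 6 h replicate 3, at -1.86, and EXPA6 only without ethylene 6 h replicate 3 (4.46) or water 6 h replicate 3 (3.23). For the change from 16 to 24 h, DESeq2 and the compared groups fitted alone each called 4 genes lower. Both lost EXPA3 and EXPA9, the latter at -0.50 by DESeq2 (DESeq2 adjusted p = 0.248) and -0.53 in the groups alone (edgeR adjusted p = 0.0553). With the left-out library in the fit 0 genes were called in either direction for that change. The decrease of EXPA3, by 0.39, was also lost under RLE scaling and with reads of either strand, and in turn without water 16 h replicate 2 or 3, water 24 h replicate 2, ethylene 16 h replicate 3 or ethylene 24 h replicate 2, its edgeR adjusted p lying between 0.0532 and 0.171. EXPA2, at 0.39 and not called, passed at 0.67 without water 16 h replicate 3 and at 0.60 without water 24 h replicate 2.

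Along the ethylene course itself, 8 of the 9 genes rose from 6 to 16 h and 0 fell (39.6% and 41.2% of all genes, and 8 and 0 with the left-out library). EXPA4 and EXPA15 passed the filter on low counts only through groups of 16 and 24 h, and EXPA6 only through those of 24 h. Counts of genes rising with time, here and from 16 to 24 h, therefore do not stand for all members. EXPA15 rose 158-fold, from 14 reads in 3 libraries to 1966 in 2, EXPA2 73.5-fold and EXPA9 56.6-fold. EXPA8 was the exception, at 208, 203 and 235 CPM at 6 h and 226 and 218 at 16 h (log2 0.04 ± 0.110, edgeR adjusted p = 0.722). With the compared groups fitted alone it too was called higher, by 0.15 (edgeR adjusted p = 0.00355). With ethylene it thus did not fall from 6 to 16 h as it did in water, and the test of the change in effect above compares these courses directly. EXPA6 rose on 1 read at 6 h against 10 at 16 h, a ratio of 11.6 (95% exact interval 1.64 to 501; edgeR adjusted p = 0.00844). Its log2 change of 3.11 became 4.96 without ethylene 6 h replicate 3, and the call ended without ethylene 16 h replicate 3 (edgeR adjusted p = 0.0534).

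From 16 to 24 h with ethylene the genes parted: 5 were higher and 4 lower (28.8% and 41.1% of all genes; 4 and 0 with the left-out library). EXPA2 rose 2.42-fold, EXPA4 3.12-fold, EXPA3 1.53-fold and EXPA9 1.31-fold, and EXPA6 by 3.46 on the log2 scale, while EXPA10 fell 2.16-fold, EXPA8 1.84-fold, EXPA1 1.63-fold and EXPA15 1.19-fold. The fall of EXPA1 (log2 -0.70 ± 0.140) was not called by DESeq2 (-0.52). The call of EXPA15 (log2 -0.26 ± 0.104, edgeR adjusted p = 0.0292) was lost without ethylene 16 h replicate 1 or ethylene 24 h replicate 2 or 3 (edgeR adjusted p = 0.257, 0.101 and 0.0954), and under RLE scaling at -0.07. Of the genes that fell, EXPA1 and EXPA10 had the largest shares per kilobase at 16 h and EXPA8 at 6 h, and EXPA2 with EXPA9 made up most of the pool at 24 h. Of all genes called in this step 41.2% were higher under TMM scaling and 56.9% under RLE, and of those called in the change of effect from 16 to 24 h 26.4% and 47.4%.

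The order of the 7 groups differed between genes. EXPA2, EXPA3 and EXPA9 were highest with ethylene at 24 h and next with ethylene at 16 h, and EXPA1, EXPA10 and EXPA15 had these in the reverse order. EXPA8 was highest with ethylene at 16 h and 6 h, whose libraries overlapped, then in water at 6 h, and only then with ethylene at 24 h. EXPA4 ran from ethylene at 24 h over water at 24 h and water at 16 h to ethylene at 16 h, all 4 without overlap of neighbours. Dry seeds were lowest in the order for EXPA1, EXPA2, EXPA3, EXPA6, EXPA8, EXPA9 and EXPA10. Of the neighbours in these orders, none overlapped for EXPA2 and 1 pair for EXPA9, the water and ethylene libraries of 6 h.

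Other alpha-expansin genes were scarce. Of 16 others listed, 13 stayed under 1 CPM in every library, the highest reaching 0.590, and 9 of them had 0 reads throughout, among them EXPA7 and EXPA18, the root hair expansins. The 3 that were tested, EXPA13, EXPA14 and EXPA20, were all higher with ethylene at 16 h and at 24 h, where 37.6% and 41.3% of all genes were. EXPA20 stood at 36.5 ± 0.750 CPM (n = 2) against 19.9 ± 1.07 at 16 h and at 43.1 ± 1.09 against 17.1 ± 2.16 at 24 h, and was lower at 6 h, at 6.49 ± 0.306 against 9.56 ± 0.166. EXPA14 was at 5.75 ± 0.301 against 1.36 ± 0.219 CPM at 24 h. EXPA13 had its highest level in dry seeds, at 22.6 ± 1.07 CPM, where the 10 genes above were near 0.

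The beta-expansins and expansin-like genes, relatives of the alpha-expansins, had 4 of 10 tested, with calls in both directions in numbers near the shares of all genes (37.6% higher and 35.4% lower at 16 h, 41.3% each at 24 h). At 16 h 1 was higher and 1 lower with ethylene: EXPB1 at 5.31 ± 0.565 against 1.48 ± 0.165 CPM and EXLA1 at 1.76 ± 0.0889 against 8.71 ± 1.77 CPM. At 24 h 2 were higher and 1 lower, and at 6 h 0 and 1, where 4.54% of all genes were higher and 4.34% lower. EXLA1 was at 75.2 ± 4.11 CPM in dry seeds and fell 4.40-fold in the first 6 h, the opposite of the alpha-expansins that rose then.

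Proton pump genes, whose products acidify the wall, were called in both directions. Of 9 tested of 11, 2 were higher and 5 lower with ethylene at 16 h, 2 and 6 at 24 h, and 1 and 0 at 6 h, where all genes gave 37.6% and 35.4%, 41.3% and 41.3%, and 4.54% and 4.34%. AHA2, a main plasma membrane pump, was higher at 16 h, at 448 ± 3.38 against 116 ± 23.6 CPM, and at 24 h, at 502 ± 25.3 against 123 ± 11.5 CPM. In water it stood at 493 ± 19.2 CPM at 6 h and fell 4.27-fold to 16 h, the step in which EXPA8 fell too. AHA4 was lower with ethylene, at 10.2 ± 1.33 against 59.9 ± 4.46 CPM at 16 h and 8.35 ± 0.701 against 44.3 ± 3.24 CPM at 24 h. AHA3 was the 1 higher at 6 h, at 7.21 ± 0.268 against 3.26 ± 0.706 CPM. None of the 6 genes SAUR19 to SAUR24, whose products keep the pumps active, passed the filter on low counts (0 of 6).

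Of 10 genes of gibberellin synthesis and response and of endosperm and epidermis control, 8 were tested; 5 were higher and 1 lower at 16 h, 4 and 4 at 24 h, and 1 and 1 at 6 h. At 24 h this is near the share of all genes, 41.3% in each direction, and at 16 h that share was 37.6% higher and 35.4% lower. At 6 h it was 4.54% higher and 4.34% lower. GA3OX2, an enzyme that makes active gibberellin, stood at 13.1 ± 0.129 against 0.316 ± 0.0561 CPM at 16 h and 9.43-fold above water at 24 h (log2 3.24 ± 0.167). RGL1, a DELLA repressor of gibberellin responses, was higher too, at 11.1 ± 0.792 against 0.990 ± 0.315 CPM at 16 h. NAC25, a NAC factor known to act on EXPA2 in the endosperm, had at most 0.0519 CPM in any library.

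Marker genes of seed parts also differed between ethylene and water, in a direction that depended on the list. Their part in the expansin differences was not tested. Of all genes 37.6% were higher and 35.4% lower at 16 h and 41.3% each at 24 h, against which the counts below are to be read. With ethylene all 10 mature seed genes were lower at 16 and at 24 h, their sum being 6560 to 7740 CPM against 75300 to 93100 at 16 h and 566 to 833 against 104000 to 115000 at 24 h. Of 4 tested endosperm genes 0 were higher and 2 lower at 16 h, and 1 and 2 at 24 h, near those shares. The 5 genes of that list summed to 1730 to 1960 CPM against 9260 to 10500 at 16 h and to 580 to 735 against 5250 to 5690 at 24 h, mostly EPR1, a wall protein of the endosperm (1800 ± 155 against 9900 ± 655 CPM at 16 h). NAC25, the fifth of that list, was at 0 in all libraries of 4 groups. Of the 5 epidermis genes 5 were higher and 0 lower at 16 h and 4 and 1 at 24 h, with sums of 534 to 547 against 326 to 363 CPM and 803 to 841 against 429 to 460 CPM. Of 4 tested embryo root genes 4 were higher at both times, their sums being 56.6 to 58.0 against 39.6 to 43.7 CPM at 16 h. Of 5 tested leaf photosynthesis genes 3 were higher and 0 lower at 16 h and 3 and 2 at 24 h, and the list summed to 633 to 668 against 187 to 216 CPM at 16 h. At 6 h 4.54% of all genes were higher and 4.34% lower. Of 10 mature seed genes 0 were higher and 2 lower then, and of 5 epidermis genes also 0 and 2. The sums were 27000 to 28200 against 29200 to 31200 CPM for mature seed genes and 353 to 364 against 386 to 388 CPM for epidermis genes. Of 4 tested endosperm genes 0 were higher and 1 lower at 6 h, and the same held for 4 embryo root genes. Of 5 leaf photosynthesis genes 0 were higher and 0 lower.

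The members differed in how alike their courses were. Over the 20 libraries, which fall into 7 groups and are not independent points, log2 CPM of EXPA2 and EXPA9 correlated at 0.985 and of EXPA1 and EXPA3 at 0.975, but of EXPA4 and EXPA8 at 0.0191. Among 6445 genes that have a symbol and pass a floor on level, the closest courses to EXPA8 were those of GOX2 (0.992), AHA2 (0.992) and IRX14 (0.989). Closest to EXPA2 were IGMT5 (0.993), HCD1 (0.993) and SNRK2.1 (0.992), to EXPA9 MYC4 (0.996), NAD-ME2 (0.994) and ABCG32 (0.993), and to EXPA10 OPT6 (0.996), RACK1C_AT (0.993) and RACK1B_AT (0.991). EXPA3 was nearest to CB5LP (0.996), sks17 and PDLP2 (both 0.994), EXPA1 to rps15ab (0.988), RPL27AB and AFB5 (both 0.987). EXPA15 was nearest to PTAC2 (0.985), EXPA4 to GAMMA CAL1 (0.977) and EXPA6 to UXS3 (0.948).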

How the data were processed

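RNA was measured in 21 stranded polyA libraries of wild-type seeds, in 7 groups of 3 taken from the sample titles. The authors aligned reads to TAIR10 and counted them per gene with STAR, per the submitters' processing notes; versions and annotation are not given in the sources used here. Raw counts were deposited for either strand and for forward and reverse orientation, per the file headers. Reverse counts hold the sense reads and were used; forward counts made up 2.72 to 5.41%. The 4 summary lines per library were left out: 0.209 to 2.04% unmapped, 1.44 to 2.47% multimapping, 0.752 to 2.78% off genes and 0.0776 to 0.166% ambiguous.

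From these counts, 20 libraries formed 1 fit in edgeR 4.0.16 (R 4.3.3): TMM scaling, the default filter (minimum count 10, total 15), 19298 genes tested, the quasi-likelihood F test, 2-sided, with p-values adjusted by Benjamini-Hochberg across every tested gene (FDR 0.05) in each of 10 comparisons. CPM are TMM-scaled. The SE is the size of the log2 fold change over the square root of F. CPM per kilobase uses RefSeq exon bases of TAIR10.1, and its gene table matched 37051 of 37336 genes. Intervals at 95% and the floor of 3 counts over a group cover counting error only. The fit was tested on simulated data. Alternatives were DESeq2 1.42.0, RLE scaling, no filter, the compared groups alone, either strand, an FDR of 0.01, a replicate block and each library left out.

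The members, lists and tests were chosen with earlier results of these data known. All 10 members are named; from other lists, up to 2 called genes per comparison with the largest change and no overlap; for likeness, the 3 genes with the highest r, that have a symbol and average log2 CPM of 1 or more. A few genes of those lists are named for being scarce, chosen after their values were seen.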

Additional observations from a re-analysis of the deposited data

Results flagged for a closer look

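The ethylene effect, tested as the difference of log2 fold changes between times, differed between 6 and 16 h in 7 alpha-expansin genes. It was larger at 16 h by 3.41 in EXPA1, 3.50 in EXPA2, 2.80 in EXPA3, 3.90 in EXPA8, 3.69 in EXPA9, 2.73 in EXPA10 and 3.06 in EXPA15, each on the log2 scale. Of these, EXPA15 passed the filter on low counts only through groups of 16 and 24 h. Between 16 and 24 h the effect differed again in 7 genes. There the change was -1.28 in EXPA1, -0.39 in EXPA3, -1.12 in EXPA8, -0.66 in EXPA9, -0.82 in EXPA10 and -0.70 in EXPA15, and 1.22 in EXPA4, the 1 gene whose effect grew. The median of all genes for that change was -0.14. DESeq2, and a fit of the compared groups alone, called neither EXPA3 nor EXPA9 there (adjusted p for EXPA9 0.248 and 0.0553). In the library labelled ethylene 16 h replicate 2, which entered no comparison, EXPA6 stood at 0.298 CPM, above the water 16 h libraries. This was 6 reads, against 2, 4 and 4 in water and 4 and 6 in the other ethylene 16 h libraries, too few to tell them apart.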

How the results depend on the processing

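Placing the library labelled ethylene 16 h replicate 2 in its group moved most: the counts of members called became 0 higher and 0 lower for ethylene against water at 6 h, 0 lower at 16 h, 1 higher and 0 lower from 16 to 24 h in water, 1 lower from 6 to 16 h in water, 0 lower from 16 to 24 h with ethylene, 1 higher for the effect at 16 against 6 h, and 0 in either direction for the effect at 24 against 16 h. It also reversed EXPA15 from 16 to 24 h with ethylene (0.15) and EXPA3 in the effect at 24 against 16 h (0.099), neither called then. With the compared groups alone, or with no filter, 3 members were higher at 6 h with ethylene. No filter also gave 1 lower from dry to 6 h and, like RLE scaling, 2 higher for the effect at 24 against 16 h. With the compared groups alone EXPA8 was also called higher from 6 to 16 h with ethylene. DESeq2 called 2 lower from 16 to 24 h with ethylene. The 1 lower call from 16 to 24 h in water became 0 with the compared groups alone, DESeq2, RLE scaling or an FDR of 0.01, and an FDR of 0.01 also gave 0 lower at 6 h. Leaving out 1 library at a time gave 0 to 1 lower at 6 h, 0 to 1 lower from 16 to 24 h in water, 0 to 1 lower for the effect at 16 against 6 h and 1 to 2 higher for the effect at 24 against 16 h. The causes of these moves were not tested. Deviations of same-numbered libraries from their group means correlated only at -0.0552 to 0.0616. Taken from groups of 2 or 3 libraries, these values do not tell whether such libraries shared a seed lot. With the replicate block 1 was higher and 1 lower at 6 h, 7 and 1 at 16 h and 8 and 0 at 24 h, none of the 90 member results changing its call. Depth limits EXPA5, EXPA6 at 6 and 16 h, and EXPA4 and EXPA15 at 6 h.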
